A study of Mus musculus with 6 samples.

Results

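The 10 tubulin isotypes *Tuba1a*, *Tuba1b*, *Tuba1c*, *Tuba4a*, *Tubb2a*, *Tubb2b*, *Tubb3*, *Tubb5*, *Tubb6* and *Tubg1* were chosen by gene symbol from the 25899 genes of the expression table, and all 10 were among the 10578 genes tested. No rule on values was used to choose them, but earlier results of these data were known when they were chosen. The oocytes came from aged females (AF) of the CD1 strain at 58 weeks (the study's methods name the ICR strain and state another age), with no transgene or deletion named, and were collected after hormonal priming and released from IBMX, an inhibitor that keeps the germinal vesicle intact. After 180 minutes of culture, oocytes past nuclear envelope breakdown (NEBD) were treated with cycloheximide, which holds ribosomes on mRNA, and lysates of 200 oocytes were separated on a sucrose gradient into 10 fractions. These were pooled into a non-polysomal (NP) part and a polysomal (P) part, which holds mRNA loaded with several ribosomes, and 3 NP and 3 P libraries were sequenced after rRNA removal and whole transcriptome amplification. Libraries of young females were not analysed here. No source used here says whether libraries of a fraction came from separate groups of mice, so p-values measure only the spread between these libraries. Each library is a bulk measure of pooled oocytes, so fewer oocytes holding an mRNA and less of it per oocyte cannot be told apart.

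Microtubules are polymers of alpha and beta tubulin heterodimers, and gamma tubulin starts their growth. After NEBD the mouse oocyte builds its meiotic spindle from many microtubule organising centres without centrioles, with tubulin already stored in its cytoplasm. Cells carry several alpha and beta genes whose proteins differ mainly in the acidic tail at the C terminus, where enzymes add or remove residues. Tubulin mRNA is also under autoregulation: when free heterodimers are in excess, TTC5 binds the N-terminal residues of the nascent chain on the ribosome and the mRNA is degraded.

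The starts of the coding sequences are shown because they encode the residues that TTC5 recognises on nascent alpha and beta chains. Each run is the first 30 coding bases on the mRNA strand, 5′ to 3′, from the GENCODE M21 transcripts of GRCm38, with the first 4 codons in capitals.
*Tuba1a*: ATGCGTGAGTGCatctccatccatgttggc
*Tuba1b*: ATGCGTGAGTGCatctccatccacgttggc
*Tuba1c*: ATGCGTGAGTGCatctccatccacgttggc
*Tuba4a*: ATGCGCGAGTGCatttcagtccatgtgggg
*Tubb2a*: ATGCGCGAGATCgtgcacatccaggcgggc
*Tubb2b*: ATGCGAGAGATCgtgcacattcaggcgggc
*Tubb3*: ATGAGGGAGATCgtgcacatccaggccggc
*Tubb5*: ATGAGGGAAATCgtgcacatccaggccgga
*Tubg1*: ATGCCGAGAGAAatcatcaccctacagttg
The fourth codon was TGC in the 4 alpha isotypes and ATC in the 4 beta isotypes shown, while *Tubg1* began with other codons.

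The ends of the coding sequences are shown because they encode the tail in which many isotypes differ, and because near-identical copies cannot always be separated by reads. Each run is the last 60 coding bases of a transcript used above, for 2 alpha and 4 beta isotypes, with the stop codon in capitals.
*Tuba1c*: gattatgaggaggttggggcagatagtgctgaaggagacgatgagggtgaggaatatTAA
*Tuba4a*: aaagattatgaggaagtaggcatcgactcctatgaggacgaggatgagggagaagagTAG
*Tubb2a*: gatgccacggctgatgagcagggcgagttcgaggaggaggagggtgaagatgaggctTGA
*Tubb2b*: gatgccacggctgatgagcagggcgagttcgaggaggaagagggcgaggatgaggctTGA
*Tubb3*: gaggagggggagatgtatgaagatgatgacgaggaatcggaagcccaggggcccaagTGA
*Tubb5*: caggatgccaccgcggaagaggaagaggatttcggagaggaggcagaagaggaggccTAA
The codon before the stop was tat in *Tuba1c*, which codes for the tyrosine that carboxypeptidases remove and tubulin tyrosine ligase restores. It was gag in *Tuba4a*, the alpha gene known for lacking an encoded terminal tyrosine. The runs of *Tubb2a* and *Tubb2b* differed only in bases that leave the encoded residues the same.

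Coding sequences of *Tuba1a* and *Tuba1b* were identical at 98.3% of aligned positions, those of *Tuba1b* and *Tuba1c* at 97.9% and those of *Tubb2a* and *Tubb2b* at 96.5%. Of all 100-base windows of the transcript, 65.8% in *Tuba1a*, 73.0% in *Tuba1b* and 53.4% in *Tuba1c* also occurred exactly in a transcript of another gene. Matches on either strand were counted. In *Tuba4a* 46.7% of the windows of transcript *Tuba4a*-202 occurred in transcripts of *Stk16*. That transcript is longer than the exon length of 2053 bases that gave whole reads for *Tuba4a*. Its share may therefore not hold for the gene model behind the FPKM values. Among the other isotypes the share was 36.9% in *Tubb2a*, 27.7% in *Tubb2b* and 4.11% in *Tubg1*, whose copy is *Tubg2*. No 100-base window was shared by *Tubb3*, *Tubb5* or *Tubb6*. With 50-base windows the share was 75.5% in *Tuba1a*, 83.1% in *Tuba1b*, 61.0% in *Tuba1c* and 48.8% in *Tuba4a*. It was 49.6% in *Tubb2a*, 39.3% in *Tubb2b*, 14.1% in *Tubg1*, 0.115% in *Tubb5* and 0 in *Tubb3* and *Tubb6*. How reads with several matches and strand were handled is not given in the sources used here, so the split among *Tuba1a*, *Tuba1b* and *Tuba1c* and between *Tubb2a* and *Tubb2b* is uncertain. *Stk16*, a kinase gene on the opposite strand listed at 21.6 to 148 FPKM, overlaps *Tuba4a* by 633 bases at the coordinates of the table. Reads of the overlap cannot be assigned without strand, so values of *Tuba4a* are uncertain too.

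The values are FPKM, reads scaled to the exon length of the gene and to the mapped reads of the library, and a value in P or NP is a level within that fraction and not a share of the molecules of the cell. The depth recovered from the steps between low values was 1237799 to 18096676 reads in NP and 163822 to 1549317 in P, lowest in P replicate 1. FPKM summed over all genes was 597261 to 633110 in NP and 246182 to 393876 in P. The part of this lower sum in the ratios below was not tested. All 12 oocyte markers examined were above 0 in all 6 libraries. Of 12 granulosa markers 7 were at 0 throughout, among them the FSH receptor gene *Fshr* and *Foxl2*, and their sum was 7.85 to 104 FPKM in NP and 0.363 to 16.5 in P. In NP and P replicate 1 most of that sum was *Cyp19a1*, the aromatase gene, at 7.15, 22.5 and 104 FPKM in NP, at 15.4 in P replicate 1 and listed at 0 in the other P libraries. Its part in the tubulin ratios was not tested. Of 6 theca and stroma markers 4 were at 0 throughout with a sum of at most 8.86 FPKM, and the 5 blood markers in the table, of 7 examined, were all at 0.

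All 10 isotypes were listed above 0 in all 6 libraries, and *Tubb6* and *Tuba4a* had the highest means. Mean FPKM spanned 57.5-fold in NP, from 18.8 for *Tuba1a* to 1083 for *Tubb6*, and 31.3-fold in P, from 8.98 to 281 for the same genes. In order of the mean over 6 libraries the isotypes were *Tubb6*, *Tuba4a*, *Tubb3*, *Tubb5*, *Tubb2a*, *Tuba1b*, *Tuba1c*, *Tubb2b*, *Tubg1* and *Tuba1a*. Of the 9 steps in this order only 2, *Tubb2a* above *Tuba1b* and *Tubb2b* above *Tubg1*, held within each of the 6 libraries. *Tubb6* exceeded *Tuba4a* in 5 of 6 libraries, all but P replicate 1, and the other neighbours changed places in 2 to 4 libraries. Order among the alpha isotypes and between *Tubb2a* and *Tubb2b* rests on the uncertain split of shared reads.

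**Figure D1:**
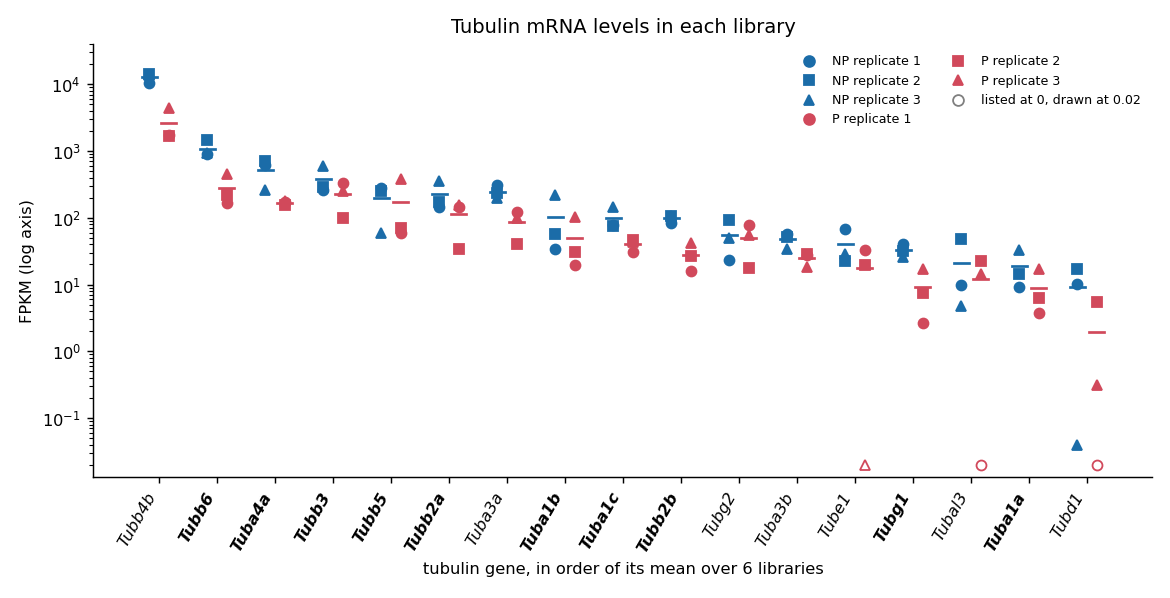
FPKM on a log axis of each tubulin gene listed above 0, in order of its mean over 6 libraries, with the 10 isotypes in bold; NP libraries are blue, P libraries are red, symbols mark replicates and bars are means of 3. *Tubb6* was the most abundant of the 10 isotypes in 5 libraries, and *Tubb4b*, which is not among them, lay above it in all 6.

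P was compared with NP by the difference of mean log2(FPKM + 1), called the log2 ratio here, which had a median of -1.03 over the 10578 genes and was below 0 for 80.1% of them. For the isotypes all 10 ratios were below 0, with a median of -1.20, but 3 of them (*Tuba1b*, *Tubb3* and *Tubb5*) were above 0 after median-of-ratios rescaling and 4 (also *Tuba1a*) after quantile normalization. None of the 10 passed an adjusted p of 0.1 in limma, where 1.8% of genes were called lower in P and 0.0189% higher. With the replicate number as a block, taking equal numbers as parts of 1 sample, limma called 1 isotype (*Tubb6*) lower in P, against 6.27% of all genes. At an unadjusted p under 0.05, 3 of 10 were lower in P (*Tuba4a*, *Tubb2b* and *Tubb6*), against 15.5% of all genes. After median-of-ratios rescaling and after quantile normalization 0 of 10 were, against 6.1% and 4.09% of all genes. With no trend 1 was, against 16%, and with no filter on low values 5 were, against 6.73%. With single libraries left out the count was 1 to 4, against 9.15% to 22.1% of all genes. It was 1 without NP replicate 1, NP replicate 2, P replicate 1 or P replicate 2. In 5 of 10 every P library was below every NP library (*Tuba1c*, *Tuba4a*, *Tubb2b*, *Tubb6* and *Tubg1*), against 23.2% of all genes, and in 0 of 10 was every P library above every NP library, against 0.633%. Within same-number pairs, 7 of 10 were lower in P in all 3 pairs, against 38.6% of all genes, and *Tubb2a*, *Tubb3* and *Tubb5* were lower in 2 of 3. Relative to the all-gene median of -1.03, ratios were lower for 7 isotypes, by up to -1.01 for *Tubb6*, and higher for *Tuba1b*, *Tubb3* and *Tubb5*, by up to 0.57. The number below that median depended on the setting, from 3 with a pseudocount of 0.1 and 4 after median-of-ratios rescaling to 10 with no filter on low values, and *Tuba1a* was at -0.0019 relative to it.

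**Figure D2:**
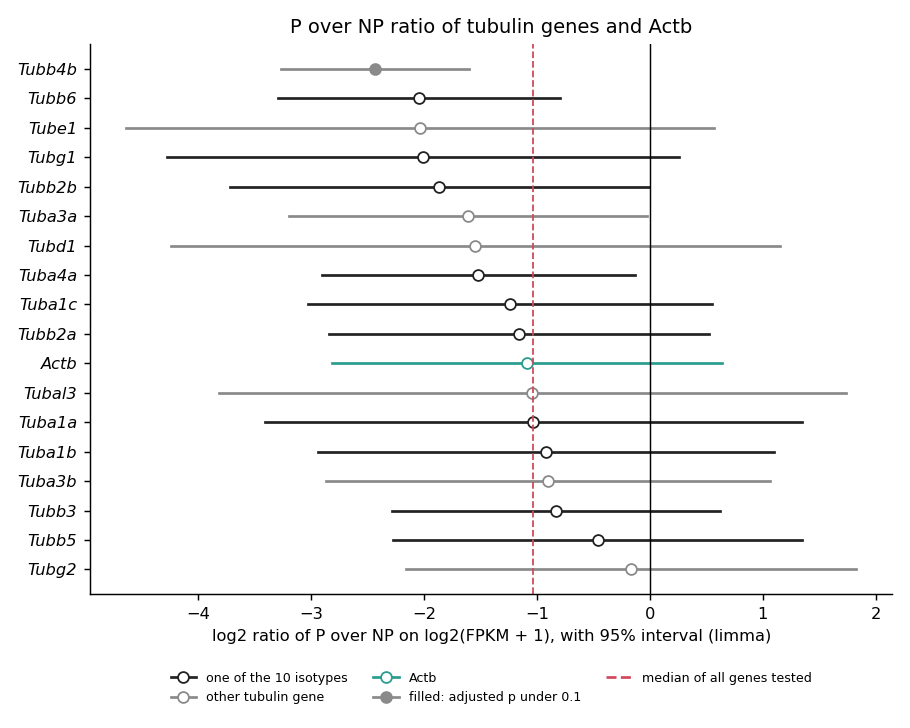
log2 ratio of P over NP on log2(FPKM + 1) for each tubulin gene tested and *Actb*, with limma's 95% interval from 3 NP and 3 P libraries; the dashed line is the median of all genes tested, -1.03. Only *Tubb4b* is filled, for an adjusted p under 0.1, and intervals of 7 of the 10 isotypes cross 0; after rescaling, *Tuba1b*, *Tubb3* and *Tubb5* lay above 0, and *Tuba1a* also under quantile normalization.

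*Tubb6* (chromosome 18), a beta isotype with wide expression outside neurons, was at 892, 1436 and 922 FPKM in NP replicates 1 to 3 and at 167, 220 and 456 FPKM in P. The fractions did not overlap, and the lowest NP library was well above the highest P library. The mean was 1083 ± 306 FPKM in NP and 281 ± 154 in P (SD, n = 3 each), and its log2 ratio was -2.04 (SE 0.60, limma adjusted p = 0.113). The adjusted p lay just above the threshold. With the replicate number as a block it was 0.0625, and without P replicate 3 the ratio was -2.46 with an adjusted p of 0.0412, within a range of 0.0412 to 0.679 over the alternatives. *Tubb6* rested on 48 to 1240 recovered reads in P and shared no window with another gene. The 3 genes whose pattern was most like it, by the root mean square difference of centred log2(FPKM + 1) over 6 libraries, were *Setd1a* (0.212), *Syce2* (0.221) and *Pex14* (0.230).

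Among the other beta isotypes, *Tubb3* (chromosome 8, 123411424 to 123422015, plus strand), known as the marker beta tubulin of neurons, had values of 260, 293 and 594 FPKM in NP and at 327, 98.0 and 248 in P. The fractions overlapped, with P replicate 1 above NP replicates 1 and 2, and the log2 ratio was -0.83 (SE 0.70, limma adjusted p = 0.524), or -0.32 without P replicate 2. *Tubb3* took rank 1 among the isotypes in P replicate 1, on 100 recovered reads. *Tubb5* (chromosome 17, 35833926 to 35838306, minus strand), the beta isotype found in most cells, was at 278, 251 and 59.6 FPKM in NP and at 58.8, 69.6 and 386 in P. The single highest library was in P and NP replicate 3 lay among the low P values, so the fractions overlapped fully. Its log2 ratio of -0.46 (SE 0.87, limma adjusted p = 0.795) ranged from -1.32 to 0.028 when each library was left out, changing sign without P replicate 1. *Tubb5* had the widest spread of the 10, with a residual SD of 1.37 on the log2 scale against a median of 1.22 over all genes.

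*Tubb2a* (chromosome 13, 34074301 to 34078008, minus strand) and *Tubb2b* (chromosome 13, 34127008 to 34130354, minus strand) are neighbouring genes for closely related beta isotypes best known from neurons. *Tubb2a* was at 145, 173 and 356 FPKM in NP and at 146, 33.7 and 157 in P, so P replicates 1 and 3 lay within the NP range. *Tubb2b* was at 82.4, 106 and 106 FPKM in NP and at 15.9, 26.4 and 41.6 in P, with no overlap. The log2 ratio was -1.16 (SE 0.81, limma adjusted p = 0.462) for *Tubb2a* and -1.86 (SE 0.89, limma adjusted p = 0.314) for *Tubb2b*, and the difference between these neighbours was not tested. The ratio of *Tubb2a* was -0.45 without P replicate 2 and -1.54 without P replicate 3. *Tubb2b* in P replicate 1 stood on 5 recovered reads, for which the 95% exact Poisson interval was 5.16 to 37.1 FPKM.

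*Tuba4a* (chromosome 1, 75214974 to 75219253, minus strand) was the most abundant of the 4 alpha isotypes in every library. It was at 612, 710 and 257 FPKM in NP and at 169, 157 and 176 FPKM in P. The 3 P libraries lay within 1.12-fold of each other and below all NP libraries, while NP replicate 3 was well under the other NP libraries. The mean was 526 ± 238 FPKM in NP and 167 ± 9.53 in P (SD, n = 3 each). The log2 ratio was -1.52 (SE 0.67, limma adjusted p = 0.282).

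The *Tuba1* genes lie together on chromosome 15 and encode the alpha chains that most cells use, *Tuba1a* being prominent in developing neurons. *Tuba1b* (98931425 to 98934565, minus strand) was at 34.5, 56.7 and 219 FPKM in NP and at 19.5, 30.8 and 101 in P. *Tuba1a* (98949841 to 98953551, minus strand) was at 9.32, 14.2 and 33.0 FPKM in NP and at 3.71, 6.38 and 16.9 in P. For each of these genes replicate 3 was the highest library of its fraction and the fractions overlapped. Their log2 ratios were -0.92 (SE 0.97) and -1.03 (SE 1.15), with limma adjusted p = 0.607 and 0.624. The ratio of *Tuba1b* was -0.16 without NP replicate 3 and -1.58 without P replicate 3, and that of *Tuba1a* ranged from -1.57 to -0.55 with single libraries left out. Both were lower in P in all 3 same-number pairs. *Tuba1c* (99029891 to 99038105, plus strand) had NP values of 77.2, 75.1 and 143 FPKM, and P values of 30.9, 45.6 and 42.8, with a log2 ratio of -1.24 (SE 0.86, limma adjusted p = 0.462). Its fractions did not overlap, and its residual SD of 0.42 was the smallest of the 10 isotypes. In P replicate 1 *Tuba1a* rested on 1 recovered read, whose interval was 0.0938 to 20.6 FPKM, and *Tuba1b* on 6 reads, with an interval of 7.17 to 42.5 FPKM.

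*Tubg1* (chromosome 11, 101119938 to 101126419, plus strand), a gamma tubulin, which sits in the ring complexes that nucleate microtubules, was at 41.0, 31.7 and 25.9 FPKM in NP and at 2.69, 7.35 and 17.4 in P. The fractions did not overlap, and P values spread over 6.45-fold against 1.59-fold in NP. The log2 ratio was -2.01 (SE 1.09, limma adjusted p = 0.371), and the value of P replicate 1 was a single recovered read with an interval of 0.0682 to 15.01 FPKM. Such intervals reflect counting alone, because reads made by amplification can repeat a single molecule.

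**Figure D3:**
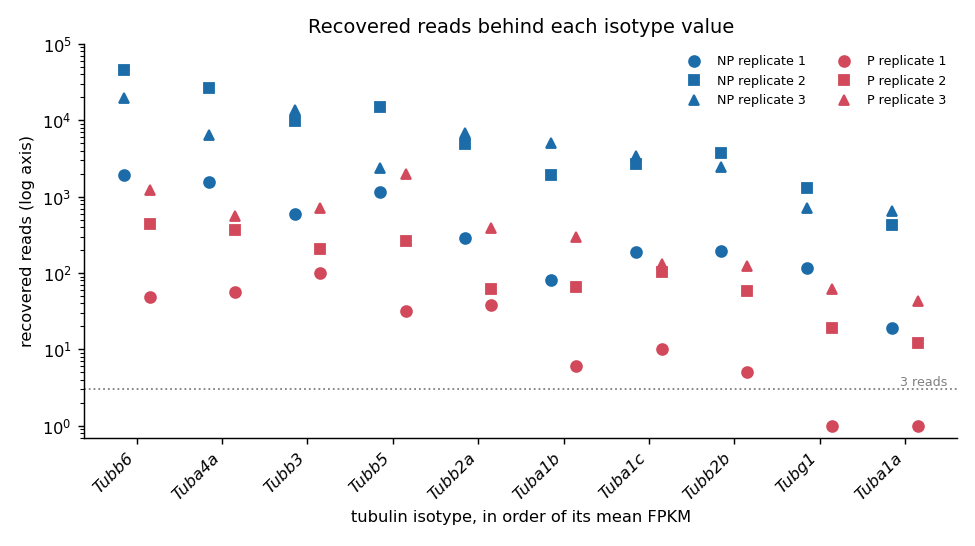
Recovered reads on a log axis behind each isotype value, in order of mean FPKM, with NP libraries in blue, P libraries in red and symbols for replicates; the dotted line marks 3 reads. *Tubg1* and *Tuba1a* stood on 1 read each in P replicate 1, while *Tubb6* had at least 48 reads in every library.

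The balance of alpha to beta isotypes was compared within each library, where scaling between libraries plays no part. Summed beta over summed alpha FPKM was 2.26, 2.64 and 3.13 in NP and 3.20, 1.87 and 3.83 in P for the 9 alpha and beta isotypes, so P values lay on both sides of the NP range. The log2 ratio of alpha over beta was -1.41 ± 0.23 in NP and -1.50 ± 0.54 in P (SD, n = 3 each), with an exact two-sided permutation p of 0.8 (adjusted p = 0.8 over 9 comparisons), where 3 libraries against 3 cannot go below 0.1. With all alpha and beta genes of the table summed, beta over alpha was 10.8, 14.0 and 17.95 in NP and 6.60, 6.42 and 12.2 in P, and the P minus NP difference in log2 alpha over beta turned to 0.80 (exact permutation p = 0.2).

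*Tuba4a* supplied 83.5%, 82.9% and 39.4% of the summed FPKM of the 4 alpha isotypes in NP and 75.8%, 65.5% and 52.3% in P. The lowest share was in NP replicate 3, where *Tuba1b* supplied 33.7%, and the fractions overlapped (exact permutation p = 0.8, adjusted p = 0.8). *Tubb6* supplied 53.8%, 63.6% and 45.2% of the 5 beta isotypes in NP and 23.3%, 49.2% and 35.4% in P. The mean share of *Tubb6* was 18.2 percentage points lower in P, with 1 P library above the lowest NP library (exact permutation p = 0.2, adjusted p = 0.3). That difference was -11.9 points without P replicate 1 and -24.9 without P replicate 2. *Tubb3* supplied the largest part in P replicate 1, at 45.7%, and *Tubb5* supplied 29.96% in P replicate 3.

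**Figure D4:**
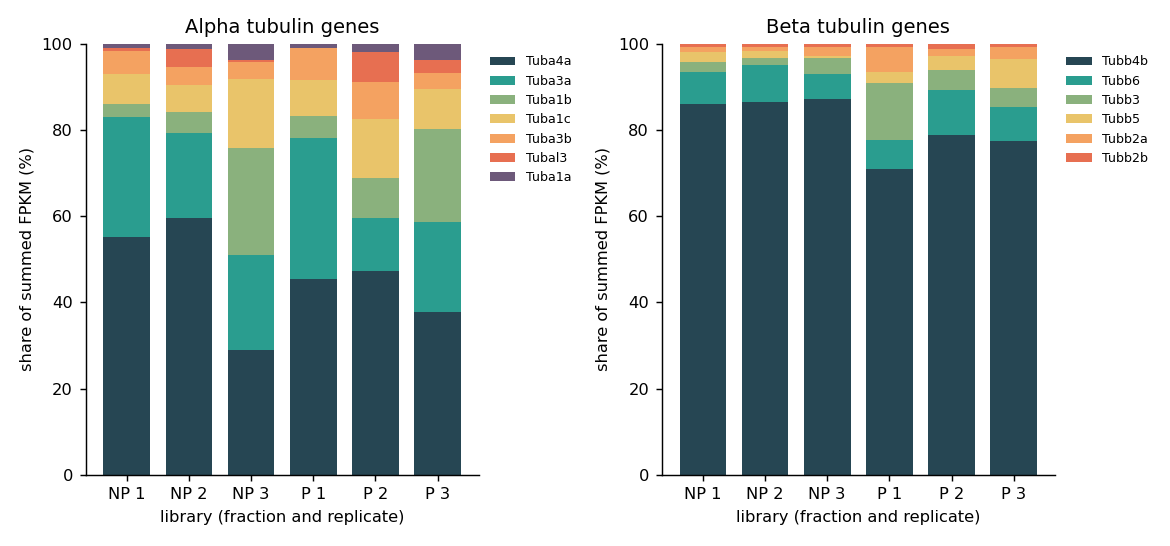
Share in percent of summed FPKM of each alpha tubulin gene (left) and each beta tubulin gene (right) in the 3 NP and 3 P libraries, including tubulin genes other than the 10 isotypes. *Tubb4b* held 86.1% to 87.2% of beta tubulin FPKM in NP and 70.9% to 79.0% in P, and *Tuba4a* was the largest alpha share in every library.

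Most tubulin FPKM came from *Tubb4b* (chromosome 2, 25222160 to 25224702, minus strand), a beta isotype outside the 10 that is widely expressed and used in cilia. It was at 10245, 14432 and 13874 FPKM in NP, the highest of all genes in each, and at 1745, 1683 and 4407 FPKM in P, where it ranked 19, 5 and 7. It fell by 2.44 on the log2 scale (SE 0.40, limma adjusted p = 0.00687), with no overlap between fractions. Without NP replicate 1, 2 or 3 the adjusted p was 0.203, 0.104 and 0.165, and median-of-ratios rescaling gave -1.43 with an adjusted p of 0.651, in a range of 0.000446 to 0.651 over the alternatives. Of its 100-base windows 30.6% and of its 50-base windows 55.5% also occurred in another gene, mostly in its pseudogenes.

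The 10 isotypes together made up 16.1% to 18.5% of all tubulin FPKM in NP and 26.3% to 32.0% in P, a range that did not overlap. The ratios of *Tubb3*, *Tubb5* and *Tubb6* to *Tubb4b* within a library, chosen after their values were seen, were all higher in P on average. *Tubb3* over *Tubb4b* was higher in P by 1.60 and *Tubb5* over *Tubb4b* by 1.97 on the log2 scale, both without overlap (exact permutation p = 0.1 each, the smallest that 3 libraries against 3 allow, adjusted p = 0.225). With single libraries left out these differences ranged from 1.04 to 1.91, lowest without P replicate 1, and from 1.20 to 2.52, lowest without NP replicate 3. For *Tubb6* over *Tubb4b* the difference was 0.39 (exact permutation p = 0.2, adjusted p = 0.3). Ratios to *Tubb6* were chosen after values were seen as well. Against *Tubb6*, *Tubb5* was higher in P by 1.58 (exact permutation p = 0.1, adjusted p = 0.225) and *Tubb3* by 1.21 (exact permutation p = 0.3, adjusted p = 0.386). The first was 0.97 without NP replicate 3 and the other 0.55 without P replicate 1. The share of *Tubb4b* in all beta tubulin, also chosen after its values were seen, was 86.6 ± 0.568% in NP and 75.8 ± 4.25% in P (SD, n = 3 each), with every P library lower (exact permutation p = 0.1, adjusted p = 0.225). These permutation tests took the libraries as independent. With libraries paired by replicate number an exact sign-flip p cannot go below 0.25.

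Of the 10 tubulin genes outside the isotypes, 3 were listed at 0 in all 6 libraries: *Tubb1* of platelets, *Tubb4a* of brain and *Tuba8*. The other 7 were tested and *Tubb4b* was the 1 called. *Tuba3a*, an alpha gene best known from testis, was at 307, 235 and 196 FPKM in NP and at 121, 40.6 and 97.5 in P, with a mean close to that of *Tubb2a* (log2 ratio -1.61, limma adjusted p = 0.311). Of its windows 12.3% at 100 bases and 35.3% at 50 bases also occurred in another gene, mostly *Tuba3b*. *Tubg2*, the other gamma tubulin, was at 23.5, 93.4 and 50.4 FPKM in NP and at 76.6, 17.98 and 55.9 in P, with overlapping fractions and a log2 ratio of -0.17 (limma adjusted p = 0.940) that was 0.80 after median-of-ratios rescaling and 0.81 after quantile normalization. *Tubg2* was above *Tubg1* in every library but NP replicate 1. *Tube1* and *Tubd1*, tubulins of centrioles, had log2 ratios of -2.04 and -1.54 and were each listed at 0 in 1 P library. With single libraries left out, these ranged from -3.01 to -0.46 for *Tube1*, smallest in size without P replicate 3, and from -2.80 to -0.74 for *Tubd1*, largest in size without NP replicate 3 and smallest without NP replicate 2. The alpha genes *Tuba3b* and *Tubal3* had ratios of -0.90 and -1.04, and neither passed the threshold. That of *Tuba3b* was 0.069 after median-of-ratios rescaling and 0.16 after quantile normalization, and that of *Tubal3* was 0.17 after quantile normalization and 0.37 without P replicate 1.

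Among 48 tested genes of tubulin biology outside the 10 isotypes, which include those 7 tubulins, 43 ratios were below 0 with a median of -1.28, beside 80.1% below 0 and a median of -1.03 over all genes. Of the 48, 2 were called, both lower in P, beside 1.8% of all genes, and 4 with the replicate number as a block (*Arl2*, *Tbcb*, *Tubb4b* and *Tubgcp2*), beside 6.27%. Of 6 tested folding cofactors, which assemble the alpha and beta heterodimer, all had ratios below 0 with a median of -2.19. At an unadjusted p under 0.05, 4 of 6 were lower in P (*Arl2*, *Tbcb*, *Tbca* and *Tbcd*, the last pair named after their values were seen), against 15.5% of all genes, and 1 was called. *Tbca* was at 4.82, 5.16 and 0.492 FPKM in NP and listed at 0 in all P libraries. *Tbcd* was at 23.0, 16.6 and 20.3 FPKM in NP and at 3.02, 5.09 and 1.20 in P. In P replicate 1 both lay below 9.16 FPKM, the value of 3 reads for a gene of 2 kb. The 4 became 1 after median-of-ratios rescaling (6.1% of all genes) and 2 after quantile normalization (4.09%). With single libraries left out they became 1 to 4 (9.15% to 22.1% of all genes), lowest without NP replicate 1. The cofactor called was *Arl2*, a small GTPase of the cofactor complex. It was at 136, 210 and 181 FPKM in NP and at 6.33, 32.4 and 5.36 in P. Its level fell by 3.91 on the log2 scale (SE 0.96, limma adjusted p = 0.0592). Its value in P replicate 1 was also below 9.16 FPKM, and its reads were not recovered. Without NP replicate 1, 2 or 3 the adjusted p of *Arl2* was 0.352, 0.346 and 0.165, and over all alternatives it ranged from 0.0217 to 0.600. Its ratio was -4.67 without P replicate 2. *Tbcb*, the cofactor that receives alpha tubulin, was at 233, 76.7 and 79.2 FPKM in NP and at 25.4, 11.5 and 14.8 in P, without overlap (log2 ratio -2.71, limma adjusted p = 0.1696, and 0.0995 with the block).

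None of 12 tested genes of the CCT chaperonin and prefoldin, which fold new tubulin chains, passed the threshold in limma, 1 of them (*Cct5*) was lower in P at an unadjusted p under 0.05, against 15.5% of all genes, and their median ratio was -0.96. *Cct5* was at 1213, 1101 and 177 FPKM in NP and at 115, 243 and 248 in P, with NP replicate 3 among the P values. *Pfdn5* was at 48.7, 50.8 and 229 FPKM in NP and at 131, 32.7 and 146 in P. None of 10 genes of the gamma tubulin ring complex and its partners passed (median -1.04), while 2 (*Tubgcp2* and *Mzt2*) were lower in P at an unadjusted p under 0.05, close to the 15.5% of all genes. *Tubgcp2*, a core subunit, was at 94.3, 127 and 483 FPKM in NP and at 37.6, 26.4 and 16.5 in P without overlap (log2 ratio -2.77, limma adjusted p = 0.150, and 0.0880 with the block), a ratio of -2.06 without NP replicate 3. *Mzt2*, a small subunit of that complex, was at 51.6, 50.8 and 655 FPKM in NP and at 14.8, 22.7 and 47.5 in P. NP replicate 3 held the highest value for *Tubgcp2*, *Mzt2* and *Pfdn5* and, among the isotypes, for *Tuba1a*, *Tuba1b*, *Tuba1c*, *Tubb2a* and *Tubb3*.

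None of 12 tested tubulin modifying enzymes passed (median -1.64), and 2 (*Ttll1* and *Ttll12*, named after their values were seen) were lower in P at an unadjusted p under 0.05, again near the 15.5% of all genes. *Ttll4*, a glutamylase, was at 40.5, 35.1 and 39.3 FPKM in NP and at 16.5, 26.0 and 1.35 in P, while *Hdac6*, a tubulin deacetylase, was at 27.1, 30.9 and 1.43 in NP and at 22.0, 6.63 and 21.1 in P. *Ttc5*, the factor of tubulin mRNA autoregulation, had 3.51 FPKM in NP replicate 1, 15.5 in replicate 2 and a listed 0 in the other, against 72.9, 29.0 and 5.61 FPKM in P. Its log2 ratio of 2.54 (SE 1.31, limma adjusted p = 0.342) was not past the threshold, and P replicate 3 lay within the NP range. This ratio was 1.51 without NP replicate 3, 1.74 without P replicate 1 and 3.53 without NP replicate 2, and 3.69 or 1.67 with a pseudocount of 0.1 or 5. *Actb*, the cytoskeletal control of the study, was at 80.8, 134 and 190 FPKM in NP and at 45.6, 42.5 and 108 in P (log2 ratio -1.09, limma adjusted p = 0.496), so that its ratio lay between those of *Tubb2a* and *Tuba1a*.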

How the data were processed

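Expression was read from the deposited table of FPKM per gene, which the authors made from reads trimmed with Trim Galore 0.4.1, checked with FastQC 0.11.5 and aligned to GRCm38 with HISAT2 2.0.5. For the annotation release, strand setting, read length and handling of multiply aligned reads, the sources used here give nothing. The table also holds the authors' mean for each fraction, which was not used, and no columns of the authors' own comparisons. Of 25965 rows, 58 symbols were duplicated, and the row with the highest mean was kept.

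The fractions were tested on log2(FPKM + 1) by limma 3.58.1 (R 4.3.3), letting the variance prior follow mean expression, with two-sided p-values and Benjamini-Hochberg adjustment over the 10578 genes whose mean exceeded 1 FPKM in NP or in P. The threshold was 0.1. A fold change on this scale understates the change of low genes. Values within libraries were compared with exact permutation tests (scipy 1.17.1). Depth was estimated from the step size at which low values of 1-transcript genes became whole, within 0.02 reads for 67.3% to 72.5% of those checked per library. For each tubulin listed above 0, an exon length was then solved that gave whole reads in all 6 libraries. What 1 step counts, a read, a pair or a spliced piece, is not settled. Methods were tested on simulated data.

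The study's methods state that every sample yielded an NP and a P pool. Equal replicate numbers were therefore read as the same sample, a match that no source used here puts in words. Across genes, residuals from the mean of each fraction correlated at 0.0634, 0.0991 and 0.116 between equal numbers and at -0.0886 to 0.0208 between unequal ones. The main comparison had no block, and the blocked p is given where it changed a call.

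Named genes were the isotypes, the other tubulins, *Actb*, the 3 genes most like the highest isotype and, from each list of tubulin biology, those past the threshold and the 2 with the highest mean. *Stk16* was added for its overlap with *Tuba4a*. Members and lists were chosen with earlier results of these data known. Alternatives were other pseudocounts, filters, scalings and thresholds, no trend, the replicate number as a block, and leaving out single libraries. Sequences and shared windows came from GENCODE M21 transcripts.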

Additional observations from a re-analysis of the deposited data

How the results depend on the processing

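Genes past the threshold numbered 192 in the comparison as reported, 69 with a pseudocount of 0.1, 1 with no filter, 3 after median-of-ratios rescaling, 4 after quantile normalization, 15 with no trend, 65 at a threshold of 0.05 and 1 to 331 with each library left out, fewest without NP replicate 3 and most without P replicate 3. Median-of-ratios rescaling moved the median ratio of all genes from -1.03 to -0.43 and quantile normalization to 0.0027. The isotypes past the threshold numbered 0 as reported and 0 to 1 with each library left out, the 1 being *Tubb6* without P replicate 3. No change of pseudocount, filter, scaling, trend or threshold called an isotype. Other genes of tubulin biology past it numbered 2 as reported, 1 with a pseudocount of 0.1 and at a threshold of 0.05 (*Tubb4b* each time), 0 with no filter, either rescaling or no trend, and 0 to 2 with each library left out, being 0 without NP replicate 1, 2 or 3.

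The replicate number as a block gave 668 genes past the threshold, 1 isotype (*Tubb6*, limma adjusted p = 0.0625) and 4 other genes of tubulin biology (*Arl2*, *Tbcb*, *Tubb4b* and *Tubgcp2*). The block left the calls of all other named genes as they were. In the block the values within libraries kept their size, with exact sign-flip p from 0.25 (the smallest possible with 3 pairs) to 1.

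Signs turned under rescaling for *Tuba1a* (quantile 0.15), *Tuba1b* (median-of-ratios 0.055, quantile 0.10), *Tubb3* (0.16 and 0.19), *Tubb5* (0.53 and 0.40), *Tuba3b* (0.069 and 0.16), *Tubal3* (quantile 0.17) and *Tubg2* (0.80 and 0.81). With each library left out, ratios ranged from -1.32 to 0.028 for *Tubb5*, -1.91 to 0.37 for *Tubal3*, -0.67 to 0.43 for *Tubg2*, also positive at 0.30 without NP replicate 2, -0.33 to 0.78 for *Pfdn5* and -0.93 to 0.93 for *Hdac6*. The log2 difference in alpha over beta ranged from -0.40 to 0.12, was positive without NP replicate 1 (0.019) or P replicate 3, and was 0.80 over all alpha and beta genes. The difference in the *Tuba4a* share ranged from -18.7 to 3.34 percentage points, positive without NP replicate 1, NP replicate 2 (3.08) or P replicate 3 (2.03). The cause of these turns was not tested. Of the isotype ratios under alternatives, 130 kept direction and side of the threshold, 8 changed sign and 2 passed it. Only 1 of the 8 sign changes arose without rescaling. Depth limited *Tuba1a* and *Tubg1* in P replicate 1, each at 1 read.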
